A study of Papio anubis with 40 samples.

Results

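The last interval of a course of blood draws in olive baboons (Papio anubis) with experimentally induced endometriosis was compared here: serum of month 15 against serum of month 9 of the same animals. Libraries were chosen by their labelled month, 8 of month 15 and 8 of month 9, which is 16 of the 40 libraries in the series, and only fragments that carry an ID were used. In the month 15 group, 8 animals (PA8001, PA8003, PA8872, PA8873, PA8912, PA8914, PA8915 and PA8835) were bled 15 months after menstrual tissue had been placed in the peritoneal cavity, and in the month 9 group the same 8 animals were bled 9 months after it. Both groups are labelled as having endometriosis and no treatment, and each library was made from 0.5 mL of serum. The other 24 libraries are the same animals before inoculation and at months 3 and 6. No animal without inoculation was in the series, so the progress of the induced disease and the passing of time cannot be told apart. Age and cycle day were not in the labels used here.

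Transfer RNAs (tRNAs) fold into a cloverleaf whose anticodon sits in a loop, and ribonucleases such as angiogenin cut in that loop and release 5' and 3' fragments. The 5' fragments of glycine, glutamate, valine and lysine tRNAs are abundant in mammalian serum, where they circulate in part in complexes with protein. Other cuts, in the D arm or in the T arm, release shorter or internal pieces, and the mature 3' end of every tRNA carries the added bases CCA. A fragment is therefore described by its tRNA, by where it starts and by the base at which it stops.

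Most counts came from 5 tRNA families, and the results below turn on where their 5' fragments stop. The 5' sequences of 4 of them are therefore given first, each as the longest fragment of the family's main length series that passed the filter on low counts, with the anticodon bases it reaches in capitals.
Gly-CCC: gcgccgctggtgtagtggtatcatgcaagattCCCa
Val-AAC/CAC: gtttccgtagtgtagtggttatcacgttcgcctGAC
Lys-TTT: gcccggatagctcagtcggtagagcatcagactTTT
Gly-GCC: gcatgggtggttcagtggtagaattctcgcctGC
The anticodon occupies bases 33 to 35 in both glycine tRNAs and bases 34 to 36 in the others, as read from longer fragments in the same table. The valine line ends in GAC because the first anticodon base of tRNA Val-AAC is deaminated to inosine in eukaryotes, which sequencing reads as G. A fragment of 32 nucleotides (nt) that starts at base 1 thus stops just before the anticodon in glycine tRNAs, and with 1 more base before it in the others.

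The 8 month 15 libraries held 1631205 to 3847831 counts, and the 8 month 9 libraries 889540 to 6245450. A fragment with 3 counts stood at 0.819 to 1.70 CPM (counts scaled to library size and composition) at month 15 and at 0.5678 to 2.17 CPM at month 9, and values below that are at the limit of counting. In 2 of the month 15 libraries, those of PA8001 and PA8003, the most abundant fragment was not the one that led the other 14 libraries, and their mean correlation with the libraries of their own month was 0.807 and 0.819, the lowest of the 16. The main results below are therefore also given without those 2 libraries. Of 59 fragments and families that passed and met the naming rule, 2 fragments still passed without them, and 57 kept their direction but not their call. The composition factor of the PA8003 library at month 15 was 0.458, so its scaled CPM are well above those by library total, and abundant fragments are described as a percentage of the library's counts instead.

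Fragments of 32 to 36 nt took a larger part of the serum pool at month 15. Where they start at base 1, they stop close to the anticodon or within it. Fragments of these lengths, whatever their start, made up 23.7%, 29.6% and 63.1% of counts at month 15 (lowest, median and highest of 8), against 12.9%, 17.5% and 22.5% at month 9. The share was higher at month 15 in 8 of 8 animals and the 2 groups did not overlap. The mean difference was 17.6 percentage points (SD 15.9, n = 8; exact two-sided sign-flip permutation test, p = 0.007812, which is the smallest that 8 animals can give; 0.0332 after Benjamini-Hochberg adjustment over 17 library measures). It ranged from 1.21 points in PA8835 to 50.2 points in PA8003. Without PA8001 and PA8003 it was 10.4 points, still higher in every animal left, but 6 animals cannot give an exact permutation p under 0.03125 and the adjusted p was 0.133.

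**Figure D1:**
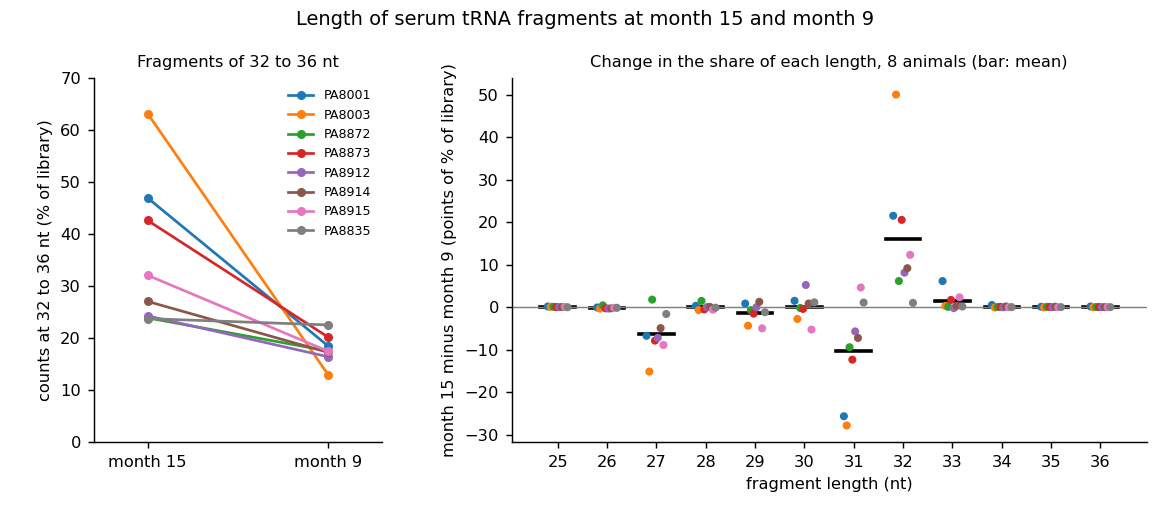
Left, share of each library's counts in fragments of 32 to 36 nt at month 15 and month 9 in percent, 1 line per animal (n = 8); right, month 15 minus month 9 in percentage points of library counts for each single length, 1 point per animal and a bar at the mean. Every line in the left panel is higher at month 15, and in the right panel the gain is at 32 nt while 27 and 31 nt lose.

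Split by single length, the gain was at 32 nt, which took 22.6%, 27.0% and 62.3% of counts at month 15, against 12.3%, 16.6% and 21.5% at month 9. The 33 nt share was 1.35 points higher on average, and higher in 7 of 8 animals. Those gains stood against losses at 31 nt, with a mean difference of -10.3 points, and at 27 nt, with a mean difference of -6.33 points and a lower share in 7 of 8 animals. The shares at 28 nt and at 30 nt differed by -0.0069 and 0.0089 points. The single lengths were not tested, but broader classes were. The share at 25 to 29 nt was lower at month 15, by -7.75 points (SD 7.29; adjusted p = 0.0332, exact permutation test) and the mean fragment length was 0.46 nt greater (SD 0.38; adjusted p = 0.0332, exact permutation test), each in 7 of 8 animals. PA8872 was the animal that went the other way in mean length.

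The longer fragments were seen inside families, not only through the mix of families. The mean length of 5' fragments was 0.99 nt greater at month 15 for Gly-CCC, 0.39 nt for Glu-CTC and 0.18 nt for Val-AAC/CAC, each in 7 of 8 animals and each with an adjusted p of 0.0332 in the exact permutation test. For Gly-GCC the difference was 0.18 nt and for Lys-TTT 0.12 nt, with adjusted p of 0.204 and 0.283, so neither passed. The shares of the same 5 families in the pool were tested as well. Lys-TTT took 6.17% ± 1.81 of counts at month 15 and 4.53% ± 1.47 at month 9 (SD, n = 8 each), a difference that passed the exact permutation test (adjusted p = 0.0332, higher in 7 of 8 animals). With counts scaled for library composition, the family sum of Lys-TTT had a log2 fold change of 0.18 and did not pass (SE 0.28, edgeR adjusted p = 0.710, higher in 6 of 8). Gly-CCC took 46.2% ± 15.3 at month 15 and 41.0% ± 6.41 at month 9, and Val-AAC/CAC took 34.5% ± 15.6 and 43.5% ± 5.63 at these months; neither difference passed (adjusted p = 0.332 and 0.199), and without PA8001 and PA8003 the Gly-CCC difference turned to -0.756 points. The Glu-CTC and Gly-GCC shares differed by 1.44 and 0.41 points and did not pass (adjusted p = 0.204 and 0.461).

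Of 2447 fragments tested across the whole table with edgeR's quasi-likelihood test, 445 rose (18.2%) and 304 fell (12.4%) at an adjusted p under 0.05. Those 2 percentages are the background against which the counts for single families and lengths are to be read. Of the 749 calls, 551 went one way in 7 or 8 of the 8 animals, 311 of them upwards. Only 8 fragments in each direction passed without the PA8001 and PA8003 libraries of month 15. Scaling by library totals alone gave 278 and 81, with the median over all fragments at 0.08 in place of -0.04 on the log2 scale. Variants of 1 fragment that differ by a base, or by where they stop, share their source and are not independent.

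The direction turned with length, though at 26 to 27 nt not in every family. Of 5' fragments of 26 to 27 nt, 96 of 177 fell and 9 rose, with a median log2 fold change of -0.91. Most of those that fell are Gly-CCC fragments that stop at base 27, described below. Nearly all of these are variants of 1 sequence, so the class leans on 1 stopping point. In the main length series of other large families, fragments of 26 nt rose in Lys-TTT (log2 1.86), Gly-GCC (2.08) and Glu-CTC (0.97). Those of 27 nt rose in Lys-TTT (2.10, or 1.03 without PA8001, and higher in 5 of 8 animals) and Val-AAC/CAC (2.17). The valine one was rare, with means of 3.77 CPM at month 15 and 0.808 CPM at month 9, the latter at the limit of counting. With each animal left out in turn, its call changed in 3 of 8 fits. The 27 nt fragments of Glu-CTC and Gly-GCC had -0.43 and -0.31 and did not pass. Of those of 28 to 29 nt, 12 of 352 fell and 8 rose, and of those of 30 to 31 nt, 128 of 828 fell and 30 rose. At 32 nt 179 of 381 rose and 1 fell, with a median of 1.00, and at 33 to 36 nt 63 of 130 rose and 0 fell, with a median of 1.20. Without the PA8001 and PA8003 libraries of month 15, 4 of 529 fragments of 32 to 36 nt passed, all upwards, while 470 of the 529 still had a fold change above 0 and their median was 0.85. The median of the 26 to 27 nt class was then -0.73 and 6 of its 184 fragments fell.

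**Figure D2:**
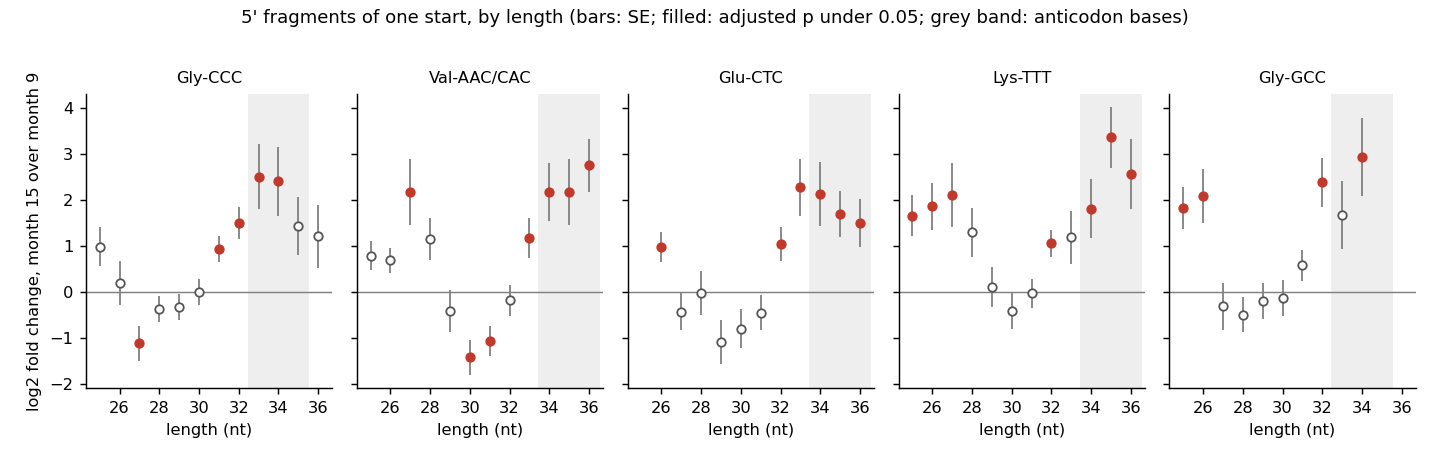
Log2 fold change, month 15 over month 9, of 5' fragments of 1 start by length in nt for the 5 most abundant families, with bars of 1 SE and filled points where the adjusted p is under 0.05; the grey band marks the anticodon bases. In each family the fragments that end at bases 32 to 34 or reach further lie above those that end at 29 to 30.

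Gly-CCC, which with Val-AAC/CAC made up most counts, had its turn between 27 and 31 nt. Its 32 nt fragment tRF-32-Q1Q89P9L8422Q took 6.75%, 9.79% and 48.1% of library counts at month 15, against 3.57%, 4.29% and 7.66% at month 9. It was higher in 7 of 8 animals, the groups overlapped slightly, and the value of 48.1% belonged to PA8003. The model gave a log2 fold change of 1.49 (SE 0.35, adjusted p = 0.00789), and 0.89 (adjusted p = 0.0840) without the PA8003 and PA8001 libraries of month 15. Its 27 nt fragment tRF-27-Q1Q89P9L842 took 3.04%, 8.35% and 14.1% at month 15, against 10.1%, 14.3% and 17.2% at month 9, and fell (log2 -1.11, SE 0.37, adjusted p = 0.0247; lower in 7 of 8 animals); without those 2 libraries its log2 fold change was again -1.11 (adjusted p = 0.102). The 29 nt and 30 nt fragments between them had log2 fold changes of -0.32 and 0.00 and did not pass. Fragments of 31, 33 and 34 nt rose, by 0.93, 2.51 and 2.40 on the log2 scale, while those of 35 and 36 nt had 1.43 and 1.21 and did not pass. Without PA8001 the 33 nt value was 1.45 and still passed, and the 34 nt value was 1.91 and did not; the 33 nt fragment was rare, with 26.8, 50.4 and 2456 CPM at month 15 against 15.2, 22.3 and 95.4 CPM at month 9.

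In Gly-CCC the direction went with the base at which a fragment stops, also where the start differed. Of 112 Gly-CCC 5' fragments that stop at base 27, 96 fell and 0 rose. They include 37 that lack the first base of the tRNA, of which 32 fell, and these are 26 nt long. Nearly all of the 112 are variants of 1 sequence, 109 of them with a base other than the family's, so the count describes 1 stopping point and not 112 events. Of 45 fragments that stop at base 31, 22 rose and 0 fell, and of 87 that stop at base 32, 64 rose and 0 fell. Without the PA8001 and PA8003 libraries of month 15 the medians were -0.84 at base 27 and 1.05 at base 32, against -1.05 and 1.305 with all libraries, with 6 and 2 calls left.

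In Val-AAC/CAC the turn lay further on, between 31 and 33 nt. Its 31 nt fragment tRF-31-79MP9P9NH57SD led 14 of the 16 libraries, and took 2.08%, 16.9% and 23.8% of counts at month 15, against 16.8%, 21.5% and 25.1% at month 9. It fell (log2 -1.06, SE 0.33, adjusted p = 0.0192), as did the 30 nt fragment (log2 -1.42, SE 0.38, adjusted p = 0.0120). Within the family's 5' fragments the 31 nt share was lower at month 15 in 8 of 8 animals, with a mean difference of -13.6 points, and the 32 nt share was higher in 8 of 8, by 8.52 points. The 32 nt fragment itself had a log2 fold change of -0.18 and did not pass, and the family as a whole had -0.75 (adjusted p = 0.0870). The 33, 34, 35 and 36 nt fragments rose, by 1.18, 2.16, 2.16 and 2.75 on the log2 scale. Without PA8001 these values were 0.81, 1.20, 1.71 and 2.05, and without PA8912 the 35 nt value was 2.98. With each animal left out in turn, the 33 nt call changed in 5 of 8 fits and the 35 nt call in 4 of 8. The 34 nt fragment has another last base than the 35 nt one has at that place, since the most abundant extension was taken at each length. By stopping base, 81 of 115 fell at base 31, 1 of 90 fell at base 32, and 21 of 50 rose at base 33. Without the PA8001 and PA8003 libraries of month 15, 0 of the 115 and 0 of the 50 passed, with medians of -0.63 and 0.75; the 36 nt fragment still passed, with 2.14 on the log2 scale (adjusted p = 0.0373).

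Glu-CTC 5' fragments turned between 31 and 32 nt. Its 32 nt fragment took 1.26%, 2.08% and 5.79% of counts at month 15, against 0.618%, 1.13% and 1.53% at month 9, and rose (log2 1.04, SE 0.36, adjusted p = 0.0307). Its share of the library was higher in 8 of 8 animals. The 29, 30 and 31 nt fragments had log2 fold changes of -1.09, -0.80 and -0.45 and did not pass, while those of 33, 34, 35 and 36 nt rose, by 2.27, 2.13, 1.69 and 1.49; without PA8001 the 33 nt value was 1.57, and the 34 nt value was 1.29 and did not pass. Within the family, 32 nt took 29.9%, 46.9% and 74.6% of 5' counts at month 15, against 20.2%, 25.7% and 39.3% at month 9. Of 61 Glu-CTC 5' fragments that stop at base 32, 29 rose; without the PA8001 and PA8003 libraries of month 15 0 passed, and their median was 1.07, the same as with all libraries.

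Lys-TTT and Gly-GCC also gained at 32 nt. Within the 5' fragments of Lys-TTT the 32 nt share differed by 13.4 points, against -11.1 points at 31 nt and -4.78 at 30 nt. Within those of Gly-GCC it differed by 4.87 points, against -4.09 points at 30 nt and -2.80 at 28 nt. For Lys-TTT, tRF-32-PS5P4PW3FJHP1 took 0.854%, 1.53% and 4.89% of counts at month 15, against 0.545%, 0.720% and 1.42% at month 9, and rose (log2 1.06, SE 0.29, adjusted p = 0.0124), while the 31 nt fragment had a log2 fold change of -0.03. The 35 nt fragment of that family had the largest log2 fold change of the fragments named here, 3.35 (SE 0.66, adjusted p = 0.00441): it stood at 2.75, 11.9 and 98.2 CPM at month 15, against 0.338, 1.504 and 2.95 CPM at month 9, near the limit of counting. For Gly-GCC, tRF-32-P4R8YP9LON4V3 took 0.0567%, 0.123% and 0.436% of counts at month 15, against 0.0111%, 0.0329% and 0.0704% at month 9, and rose (log2 2.38, SE 0.52, adjusted p = 0.00654; 8 of 8 animals). That value was 1.66 without PA8001, and 1.01 (adjusted p = 0.0841) without the PA8003 and PA8001 libraries of month 15. The main fragment of Gly-GCC, at 30 nt, had a log2 fold change of -0.13 and did not pass. All 17 Gly-GCC fragments that stop at base 32 rose, and 48 of 62 of Lys-TTT; without the PA8001 and PA8003 libraries of month 15, 0 of the 17 and 1 of the 62 passed, with medians of 1.15 and 0.87.

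Smaller families also differed by stopping base. Of 21 Glu-TTC fragments that stop at base 32, 18 rose and 0 fell, and of 40 that stop at base 31, 0 rose and 1 fell. The 32 nt fragment tRF-32-86J8WPMN1E8YN took 0.0710%, 0.116% and 0.351% of counts at month 15, against 0.0333%, 0.0507% and 0.0668% at month 9, so the groups did not overlap in share (log2 1.31, SE 0.33, adjusted p = 0.0107). Of 30 Lys-CTT fragments that stop at base 32, 1 rose, though 30 of 30 had a fold change above 0; the medians were 0.52 at base 32 and -0.72 at base 31. The Asp-GTC 5' fragment of 32 nt rose (log2 2.08, SE 0.76, adjusted p = 0.0386) in 8 of 8 animals, but its high value of 638 CPM at month 15 was that of PA8001. The other 7 animals had 9.56 to 29.6 CPM at month 15, against 6.78 to 22.5 CPM in all 8 at month 9, and without PA8001 the log2 fold change was 0.91.

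Of 157 short 5' fragments of 16 to 25 nt, which stop in the D arm, 34 rose and 8 fell, with a median of 0.77, and the share that rose was near the 18.2% of all fragments; without the PA8001 and PA8003 libraries of month 15 0 of 172 passed in either direction, with a median of 0.36. The Gly-GCC fragment of 25 nt stood at 86.8, 121 and 533 CPM at month 15, against 28.6, 53.6 and 99.2 CPM at month 9 (log2 1.83, SE 0.46, adjusted p = 0.0105; 8 of 8 animals), and the Lys-TTT fragment of 25 nt rose by 1.66 on the log2 scale (higher in 8 of 8). Those values were 0.66 and 0.999 when PA8001 and PA8003 were left out at month 15. The 19 nt class was the one whose median went the other way, at -0.54, or -0.66 and 0 calls without those 2 libraries. Of its 41 fragments 6 fell and 3 rose, and the share that fell was near the 12.4% of all fragments. The class is led by tRF-19-OUR830JZ, whose tRNA could not be read from the table (log2 -1.15, SE 0.42, adjusted p = 0.0388, lower in 7 of 8 animals). Its sequence is given because it is the most abundant fragment of a group that fell outside the 5 large families.
tRF-19-OUR830JZ: gacgaggtggccgagtggt

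At the 3' end of the molecule, pieces of tRNA Asp-GTC differed by how much of the 3' end they had kept, and in part by where they start. The full sequence in the table is given with its anticodon in capitals.
Asp-GTC: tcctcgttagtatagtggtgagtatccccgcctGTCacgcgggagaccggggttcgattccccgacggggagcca
A piece that lacks 3 bases at the 3' end has lost the CCA tail, one that lacks 4 has lost the unpaired base before it as well, and one that lacks 5 or 6 stops inside the acceptor stem. Of 17 pieces that lack 1 base, 14 rose and 0 fell, with a median of 1.77, and of 20 that lack 2 bases 13 rose and 0 fell, with a median of 1.71. Of 10 that lack 5 bases, 5 fell and 0 rose, with a median of -1.66. Pieces with the whole CCA end stood between: 3 of 28 rose, with a median of 0.79. Of 10 that lack 6 bases, 1 rose, and their median was 1.12 with all libraries but -0.12 without the PA8001 and PA8003 libraries of month 15, so its direction rests on those libraries. The other medians kept their sign without those libraries, at 1.20, 1.33, -2.01 and 0.63 for 1, 2, 5 and 0 bases lacking, with 1 call left among them, at 1 base lacking.

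Pieces that share the start at base 38, which leaves out the anticodon and the base after it, let the stopping base be compared with the start held. All 8 that match the tRNA without a mismatch are given. They are printed with the bases from 69 onwards in capitals, where base 75 is the last of the tRNA.
tRF-38-L85DMKYUYRLHR0D2: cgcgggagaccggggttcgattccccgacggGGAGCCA
tRF-37-L85DMKYUYRLHR0J: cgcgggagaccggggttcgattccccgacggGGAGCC
tRF-36-L85DMKYUYRLHR0D: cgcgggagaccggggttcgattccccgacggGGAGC
tRF-35-L85DMKYUYRLHR0: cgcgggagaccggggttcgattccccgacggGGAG
tRF-34-L85DMKYUYRLHIX: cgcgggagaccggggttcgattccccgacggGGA
tRF-33-L85DMKYUYRLHDY: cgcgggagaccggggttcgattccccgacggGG
tRF-32-L85DMKYUYRLH4: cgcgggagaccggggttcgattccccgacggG
tRF-31-L85DMKYUYRLH0: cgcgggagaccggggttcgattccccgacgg
Their log2 fold changes, from the longest to the shortest, were 0.74, 1.93, 0.71, -0.57, -1.77, -1.86, 1.18 and 1.11, and those of 37, 34 and 33 nt passed. The values thus went down over several bases between 37 and 34 nt. The 33 nt piece stood at 35.2, 61.5 and 111 CPM at month 15, against 64.4, 208 and 865 CPM at month 9 (SE 0.58, adjusted p = 0.0183; lower in 7 of 8 animals). Summed over 7 pieces that start at bases 37 to 39 and lack 5 bases, the mean was 212 CPM at month 15 and 814.5 CPM at month 9; 5 of the 7 fell. The variant tRF-34-EH623K76IR3DIY fell most among the fragments named, by 2.89 on the log2 scale (SE 0.73, adjusted p = 0.0105), with 0.383, 2.54 and 4.66 CPM at month 15 against 3.62, 16.3 and 45.6 CPM at month 9, lower in 8 of 8 animals.

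**Figure D3:**
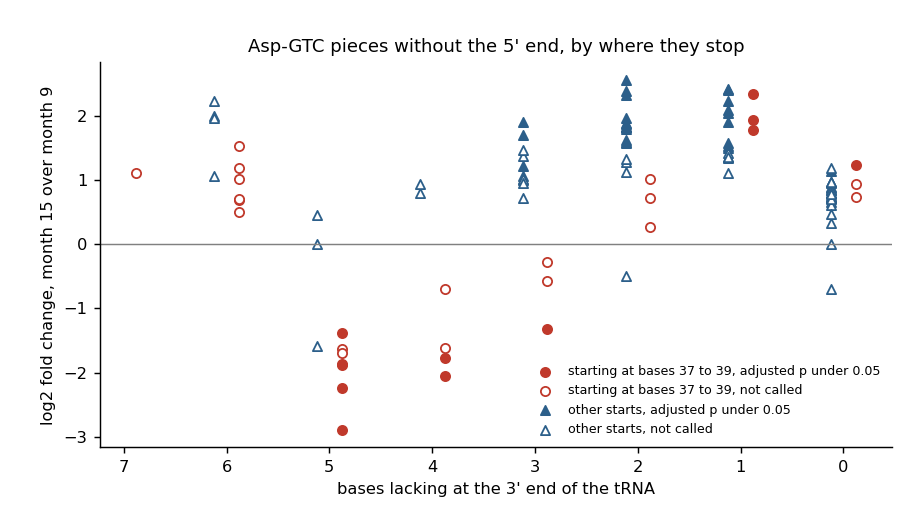
Log2 fold change, month 15 over month 9, of Asp-GTC pieces that lack the 5' end, against the number of bases they lack at the 3' end; circles start at bases 37 to 39 and triangles elsewhere, filled where the adjusted p is under 0.05. Pieces that lack 1 or 2 bases lie mostly above 0, and circles that lack 4 or 5 bases lie below 0.

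Internal pieces, which lack both tRNA ends, rose or fell by source. Of 26 from Lys-CTT, 22 rose and 0 fell, with a median of 1.82. The one with the largest change reaches from the end of the D arm through the anticodon arm and the variable region into the T stem, and a short one runs from the D loop into the anticodon stem; both are printed as examples of this group.
tRF-36-S2P46INO86RM7KE: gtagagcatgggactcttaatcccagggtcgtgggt
tRF-17-S8V0J8L: gtcggtagagcatggga
The 36 nt piece stood at 6.52, 13.8 and 97.6 CPM at month 15, against 0.564, 2.11 and 5.30 CPM at month 9, with no overlap (log2 3.00, SE 0.55, adjusted p = 0.00318; 8 of 8 animals), and it still passed without the PA8001 and PA8003 libraries of month 15 (log2 2.21, adjusted p = 0.0373). The 17 nt piece stood at 17.2, 85.1 and 606 CPM at month 15, against 19.6, 31.4 and 87.97 CPM at month 9 (log2 1.73, SE 0.58, adjusted p = 0.0247). Without those 2 libraries 1 of 27 Lys-CTT pieces passed, and the median was 0.87.

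The T arm carries the bases GGTTC in most tRNAs. Of 134 internal fragments of 29 to 38 nt that hold GGTTC, 48 fell and 19 rose, with a median of -1.06. Those of Asp-GTC went both ways, as above, and 36 of all 82 internal pieces of that tRNA rose while 8 fell. Of the 82 GGTTC fragments from other tRNAs, 40 fell and 0 rose, with a median of -1.36; this group was put together after its values were seen and is given as a count only. The most abundant of them was tRF-32-L2RRM38B8SOUM, whose tRNA could not be assigned. It is printed with no capitals, and holds GGTTC near its middle.
tRF-32-L2RRM38B8SOUM: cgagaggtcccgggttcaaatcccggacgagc
It stood at 44.3, 224 and 485 CPM at month 15, against 224, 608 and 1719 CPM at month 9, and was lower in 8 of 8 animals (log2 -1.94, SE 0.54, adjusted p = 0.0124; -1.25 and not past the threshold without PA8001), though the groups overlapped. Without the PA8001 and PA8003 libraries of month 15, 0 of 91 such fragments passed, but 3 of 91 had a fold change above 0 and the median was -1.05. Of 13 Val-TAC internal pieces, 6 fell and 0 rose, with a median of -1.46; without the PA8001 and PA8003 libraries of month 15 0 passed and the median was -0.99. Internal fragments under 29 nt did the reverse, with 67 of 182 risen and 10 fallen, and 0 of 197 passing in either direction without those 2 libraries (median 0.44 in place of 0.95).

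Of 53 fragments that end in CCA, 11 rose and 0 fell, a share near the 18.2% of all fragments that rose, with a median of 0.84 and 50 of 53 above 0; without the PA8001 and PA8003 libraries of month 15 0 passed and the median was 0.66. The 3 most abundant were from Asp-GTC. Of these the one of 40 nt rose, with 14.1, 77.2 and 188 CPM at month 15 against 15.7, 29.3 and 74.6 CPM at month 9 (log2 1.13, SE 0.37, adjusted p = 0.0227; higher in 6 of 8 animals). Those of 41 and 42 nt, which start 1 and 2 bases earlier, had log2 fold changes of 0.60 and -0.00 and did not pass. The share of all CCA fragments in the library was 0.155% ± 0.092 at month 15 and 0.0863% ± 0.0766 at month 9 (SD, n = 8 each; adjusted p = 0.204, exact permutation test).

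Summed over all fragments of a tRNA, most families did not differ. Of 32 families tested, 3 rose (9.38%) and 2 fell (6.25%). The names of the 3 that rose rest on few counts of fragments that hold the anticodon. These were 4 for Arg-TCT, 2 for Cys-GCA and 4 for Gln-CTG, so the names are tentative. Arg-TCT, which reads an arginine codon, stood at 25.6, 54.4 and 173 CPM at month 15, against 5.05, 23.1 and 98.9 CPM at month 9 (log2 1.59, SE 0.40, adjusted p = 0.00409; higher in 7 of 8 animals). Cys-GCA stood at 74.7, 153 and 407 CPM at month 15, against 30.03, 63.5 and 147 CPM at month 9 (log2 1.24, SE 0.35, adjusted p = 0.00705; 8 of 8). Gln-CTG also passed (log2 1.79, adjusted p = 0.00953), but its median at month 9 was 0.662 CPM, below the limit of counting in most libraries. Val-TAC fell (log2 -0.79, SE 0.27, adjusted p = 0.0290; lower in 5 of 8 animals), and so did the family led by tRF-19-OUR830JZ (log2 -0.96, SE 0.27, adjusted p = 0.00705), with 182, 472 and 917 CPM at month 15 against 638, 912 and 1282 CPM at month 9, lower in 8 of 8. Without the PA8001 and PA8003 libraries of month 15 0 families passed at the adjusted threshold, with log2 fold changes of 1.13 for Arg-TCT, 0.998 for Cys-GCA and -0.45 for Val-TAC, and 6 had an unadjusted p under 0.05; DESeq2 with all libraries called 6 up and 4 down.

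Groups of tRNAs that have been described in other settings were counted in the same way. Of 134 5' fragments of Asp-GTC, His-GTG and Lys-CTT, described as dependent on sex hormones in human cells, 13 rose and 4 fell, with a median of 0.01 (-0.19 without the PA8003 and PA8001 libraries of month 15). Of 60 5' fragments with 4 or more guanines in a row in the first 8 bases, as in alanine and cysteine tRNAs, 8 rose and 2 fell. A list of tRNAs described as abundant in serum held Gly-GCC, Glu-CTC and the lysine and valine tRNAs, but not Gly-CCC or Glu-TTC. Of its 1240 5' fragments 191 rose and 134 fell, with a median of -0.07. Of 789 glycine 5' fragments 125 rose and 102 fell. These 4 groupings are to be read against the background shares of 18.2% and 12.4%. Single families were further from it: of 353 Val-AAC/CAC 5' fragments 118 fell and 47 rose, and of 229 Lys-TTT 5' fragments 59 rose and 0 fell.

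In the course of the 5 draws, the share of 32 to 36 nt fragments was 24.27% ± 9.43 before inoculation, 20.3% ± 7.29 at month 3, 18.8% ± 4.58 at month 6, 17.8% ± 2.79 at month 9 and 35.5% ± 14.3 at month 15 (SD, n = 8 each). Month 9 was thus the lowest of the 5 means and had the smallest spread. The difference between successive draws was -4.01, -1.46 and -0.965 points over the first 3 intervals, with 2, 5 and 3 of 8 animals higher, and 17.6 points over the last, with 8 of 8 higher. Earlier draws also reached the range of month 15, which began at 23.7%: the highest values were 29.05% at month 3 and 25.3% at month 6. Before inoculation the highest was 44.1%, in PA8001. That library held 198840 counts and 2281 detected fragments, the fewest of the 40 libraries in both. For the 32 nt fragment of Gly-CCC the log2 fold change of month 15 over months 9, 6, 3 and 0 was 1.49, 1.82, 1.45 and 1.00, with adjusted p of 0.00789, 0.00447, 0.0281 and 0.117. For the 31 nt fragment of Val-AAC/CAC it was -1.06, -0.997, -0.84 and -0.37, with adjusted p of 0.0192, 0.0237, 0.0747 and 0.496. These comparisons share the month 15 libraries, so they are set side by side only.

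**Figure D4:**
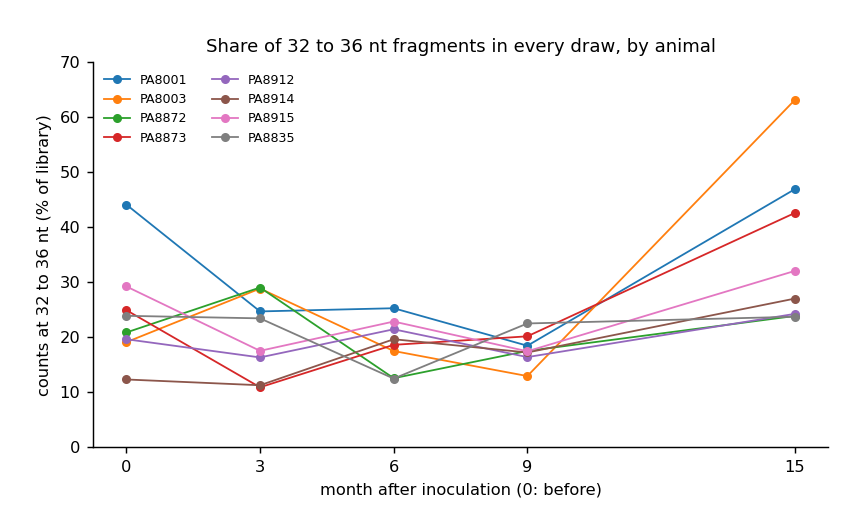
Share of library counts in fragments of 32 to 36 nt, in percent, at each of the 5 draws by month after inoculation, 1 line per animal (n = 8). At month 15 the 8 animals lie between 23.7% and 63.1%, and at month 9 between 12.9% and 22.5%.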

How the data were processed

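Small RNA libraries were made from baboon serum with adapters ligated to both ends and molecular identifiers added at cDNA synthesis, per the labels' protocols. The authors deposited a table of raw counts per fragment, 1 column a library, with a second table that pairs each ID with its sequence. The submitters' processing notes name R 4.5.0, edgeR and limma; the aligner, and whether reads were collapsed by identifier is not given in the sources used, so the limits from 3 counts cover counting error only; standard errors from the fit include the spread between animals. Of 60201 table entries, 1614 without an ID (0.0805% of counts) were left out.

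The tRNA of a fragment was read from its own sequence: families are starts shared with fragments that reach the anticodon, and 99.5% of counts fell in a named family; a start with no such fragment is called unread. Counts were fitted with edgeR 4.0.16 (quasi-likelihood, robust, TMM scaling, filterByExpr with a minimum count of 10) on the 40 libraries together, with terms for the animal (a block) and the month; p-values were adjusted by Benjamini-Hochberg over all 2447 fragments or 32 families. CPM are counts divided by the TMM-scaled library size. Values are relative to the pool: serum RNA amount was not measured. The common biological coefficient of variation was 0.5 for fragments.

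Library shares and mean lengths were tested by exact two-sided sign-flip over 8 animals (SciPy 1.17.1), 17 tests adjusted together. The pairing comes from the animal numbers in the labels; deviations from the month mean correlated at 0.191 on average within an animal and -0.0236 between animals, over 0.1 in 5 of 8. Alternatives were DESeq2 1.42.0, limma 3.58.1 (voom), other scalings and filters, a depth term, no replicate block, 16 libraries only, and left-out animals or libraries.

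Fragments named are the most abundant per family, class and direction among those called with 1 sign in at least 7 of 8 animals (up to 10 a direction), the 5 with the largest change a direction at 10 CPM or more, the 10 most abundant, the length series of 25 to 36 nt of the 5 largest families, and the 3 most abundant CCA fragments; pieces in a shared-start series were added after their values were seen. A Glu-CTC result that rests on its sequence is not reported here. Members and lists were chosen with earlier results of these data known.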

Additional observations from a re-analysis of the deposited data

Results flagged for a closer look

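Of 212 groups of 8 values (a measure, fragment or family at one month), 24 held 1 animal far from the other 7. Chance gives about 1 in 20 only for normally distributed, independent values. CPM can be skewed and length variants share their source, so that rate is a rough guide. None of these values was left out.

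At month 15 PA8001 stood apart in the share of internal fragments (1.897% of counts; others 0.489% to 0.921%), in the mean length of Val-AAC/CAC 5' fragments (31.75 nt; others 31.17 to 31.42), and in CPM of the Asp-GTC 5' fragment of 32 nt (638.3; others 9.56 to 29.6), of the valine fragment tRF-34-79MP9P9NH57S15 (1538; others 17.0 to 135.8) and of the Lys-TTT fragments tRF-33-PS5P4PW3FJHPW (3453; others 105.4 to 428.5) and tRF-36-PS5P4PW3FJHPEZE (34.85; others 1.09 to 6.32).

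PA8003 at month 15 was high in CPM of tRF-32-PS5O4PW3FJHP1 (1182; others 96.7 to 297.2), of a 17 nt internal piece (727.6; others 26.4 to 100.2), of the Gly-CCC fragment tRF-25-Q1Q89P9L84 (568.7; others 34.7 to 91.1) and of the Lys-TTT fragment tRF-32-PS5P4PW3FJHP1 (106800; others 7194 to 19260). It was low in the Asp-GTC piece tRF-35-EH623K7SIR3DR2 (3.973 CPM, others 15.0 to 31.4). The composition factor of that library, 0.458, raises its CPM above those by library total. Its high values were compared as CPM only, not as shares of counts.

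PA8872 at month 15 was high in CPM at 28 nt in 3 families: tRF-28-79MP9P9NH50E of valine (2566; others 76.0 to 321.9), that of Glu-CTC (817.4; others 39.7 to 109.1) and tRF-28-PS5P4PW3FJDD of Lys-TTT (4147; others 180.1 to 766.8). Its Gly-GCC 5' fragments were short (29.13 nt; others 29.67 to 30.15).

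At month 9 PA8835, the library with fewest counts, stood apart in the CCA share (0.2704% of counts; others 0.0351% to 0.0900%), in the length of Glu-CTC 5' fragments (31.21 nt; others 30.85 to 30.98) and in CPM of tRF-31-79MP9P9NHR7SD (37780; others 58140 to 78470). PA8001 at month 9 was high in the internal share (1.275%; others 0.548% to 0.783%) and in CPM of tRF-31-FP18LPMBQ4NKD (81.66; others 15.2 to 29.0), tRF-31-FK8SR9BM32LJD (74.38; others 16.6 to 31.0) and Gln-CTG (2.526; others 0.305 to 1.05). PA8914 at month 9 was high in CPM of the Asp-GTC 5' fragment of 32 nt (22.52, others 6.78 to 10.4) and tRF-33-P4R8YP9LON4VDP (15.52, others 0.724 to 3.57).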

How the results depend on the processing

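The counts of fragments depended most on PA8001 and PA8003. In place of 445 risen and 304 fallen, leaving out both of their month 15 libraries gave 8 and 8 (700 fragments at an unadjusted p under 0.05), leaving out that of PA8001 alone gave 275 risen, and that of PA8003 alone 199 and 164; the last 2 were chosen after seeing the data. Library totals alone gave 278 and 81, a stricter filter 278 and 193, months 15 and 9 alone 139 and 138, and no filter 83 fallen. Leaving out each animal gave 114 to 503 risen and 75 to 350 fallen, both lowest without PA8003. For families, in place of 3 risen and 2 fallen, DESeq2 gave 6 and 4, totals alone 5 and 1, size factors 5 risen, no libraries of PA8001 and PA8003 at month 15 0 and 0, without that of PA8001 1 and 1, without that of PA8003 1 fallen, months 15 and 9 alone 0 fallen, and each animal left out 1 to 4 and 0 to 4.

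The pairing by animal changed these counts by under 1.5 times: with no replicate block 477 fragments rose and 230 fell, and the Lys-TTT share, 1.641 points, lost its call (adjusted p = 0.127).

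Without PA8001 and PA8003, 6 animals left no measure past the adjusted threshold: mean length 0.3191 nt, 25 to 29 nt -6.013 points, 30 to 36 nt 5.763, 32 to 36 nt 10.38, 5' length of Gly-CCC 0.698, Val-AAC/CAC 0.0929 and Glu-CTC 0.265 nt, Lys-TTT share 1.587 and Gly-CCC share -0.7561. Without its top fragment the Lys-TTT share differed by 1.403, and over tested fragments alone the internal share by -0.02001. With 1 animal left out, the smallest exact permutation p is 0.0156, so calls are lost by construction; the ranges were 0.3577 to 0.5347 nt, -9.295 to -5.937, 5.549 to 8.813 and 12.96 to 19.96 points for the first 4, 0.7941 to 1.129, 0.1192 to 0.2051 and 0.3307 to 0.4722 nt for the 3 lengths, 0.1369 to 0.2763 nt for Gly-GCC, 1.332 to 1.938 points for the Lys-TTT share, 0.03782 to 0.09606 for CCA and -5.061 to -2.939 for the top 10 fragments.

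Fragments not called changed sign near 0 (log2). tRF-30-Q1Q89P9L8422 was -0.02624 by DESeq2, -0.02628 by size factors, -0.01568 by limma-voom, -0.1702 with no filter, and -0.2137, -0.04226 and -0.1338 without both libraries, PA8001's and PA8003's (each animal left out -0.1132 to 0.1776). With a depth term and with totals alone, tRF-32-79MP9P9NH57SJ was 0.004279 and 0.05444 (-0.3355 to 0.05804), tRF-31-PS5P4PW3FJHPB 0.12 and 0.1497 (-0.2492 to 0.1423), tRF-29-P4R8YP9LONHK 0.07451 and 0.01675 (-0.3649 to 0.05123), tRF-30-P4R8YP9LON4V 0.09693 and 0.05437 (-0.3258 to 0.1323) and the Glu-CTC fragment of 28 nt 0.2856 and 0.3159 (-0.6688 to 0.2593). The last was also 0.2178, 0.0233 and 0.1324 without both libraries, PA8001's and PA8003's, 0.5011 with no block and 0.06918 with the stricter filter. tRF-31-PS5P4PW3FJHPB was 0.08303 and 0.005889 by limma-voom with and without weights, 0.01803 in months 15 and 9 alone and 0.03608 with the stricter filter; in months 15 and 9 alone tRF-30-P4R8YP9LON4V was 0.01352. tRF-26-Q1Q89P9L84D was -0.1493 and -0.04062 by limma-voom with and without weights and -0.1756 in months 15 and 9 alone (-0.531 to 0.4377). tRF-29-PS5P4PW3FJF2 was -0.01969 without both libraries, -0.1343 with weights, -0.0008105 with no filter and -0.2822 with no block (-0.2603 to 0.4059). tRF-33-PS5P4PW3FJHPW was -0.1386 without both libraries, and tRF-27-P4R8YP9LON3 0.1446 with no block (-0.8569 to 0.03348). tRF-42-S5QKF1R3WE8RO86J2 was 0.04019 without PA8001's library, 0.06828 with totals alone, 0.01685 with weights and 0.0786 with the stricter filter (-0.1772 to 0.2264). Leaving out animals gave -0.5563 to 0.05974 for tRF-29-79MP9P9NH525 and -0.5703 to 0.04542 for the Glu-CTC fragment of 27 nt. The causes of these changes were not tested. Fragments near 3 counts are limited by depth.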
